A study of Sus scrofa with 13 samples.

Results

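The 9 interferon-stimulated genes (ISGs) ISG15, MX1, MX2, OAS1, OAS2, IFIT2, IFIT3, RSAD2 and IRF7 were taken by symbol from a count table of 35670 pig genes, in which each symbol had 1 entry. All 9 were among the 16481 genes with enough reads to be tested. No difference between groups of livers passed the main test in any of the 9 genes. For 7 of them, all but ISG15 and IRF7, the 2 highest levels at 6 h were those of single livers, ischemic control 3 and portal infusion 3, and within these groups livers given the same treatment differed by up to 134-fold in MX1.

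Interferons are secreted when a cell senses foreign or misplaced nucleic acid. They bind receptors on neighboring cells, which activate JAK kinases and transcription factors such as IRF9, and these switch on a broad set of ISGs. Many ISG products block virus replication, and in liver the response is best known from viral hepatitis, while ischemia-reperfusion injury (IRI) can release nucleic acid from dying cells.

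RNA of pig liver was sequenced in bulk, in 13 libraries from female Yorkshire pigs. The baseline group (libraries 1a and 2) had no ischemia and no infusion, and its biopsies were taken before the vessels were clamped. Ischemic controls 1 to 3 had the liver shut off from blood flow for 45 min and were sampled after 6 h of reperfusion, without cells. Arterial infusion 1 to 4 and portal infusion 1 to 4 underwent the same procedure, and in addition 3000000 human bone marrow mesenchymal stromal cells (BM-MSCs) per kg body weight were given into the hepatic artery or the portal vein after flow was restored. All pigs were under ketamine, midazolam and sufentanil anesthesia with the abdomen opened, at baseline too. Age is not given, and the labels do not say whether a baseline library shares its pig with a library at 6 h. The comparisons ask whether ischemia, or infused cells of another species, went along with an interferon response at 6 h. Reads were mapped to the pig genome alone, so a read from a human cell that mapped to a pig gene would count as pig. In tissue RNA, more RNA of a gene per cell and more cells that express it cannot be told apart.

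The libraries held between 18975413 and 35949178 counted reads, and levels are given as counts-per-million (CPM) after TMM scaling of library size. Hepatocyte markers were present in every library, with 11 of 12 matched and a summed level of 35300 to 144135 CPM. The first principal component of the 11 livers at 6 h took 62.8% of the variance of the 500 most variable genes tested. On it, ischemic control 2, arterial infusion 1, portal infusion 1 and portal infusion 4 scored from 21.5 to 48.5 and the other livers from -27.6 to -7.96. These 4 livers came from all 3 groups at 6 h, and the component is taken up again below where it moved with a gene.

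**Figure D1:**
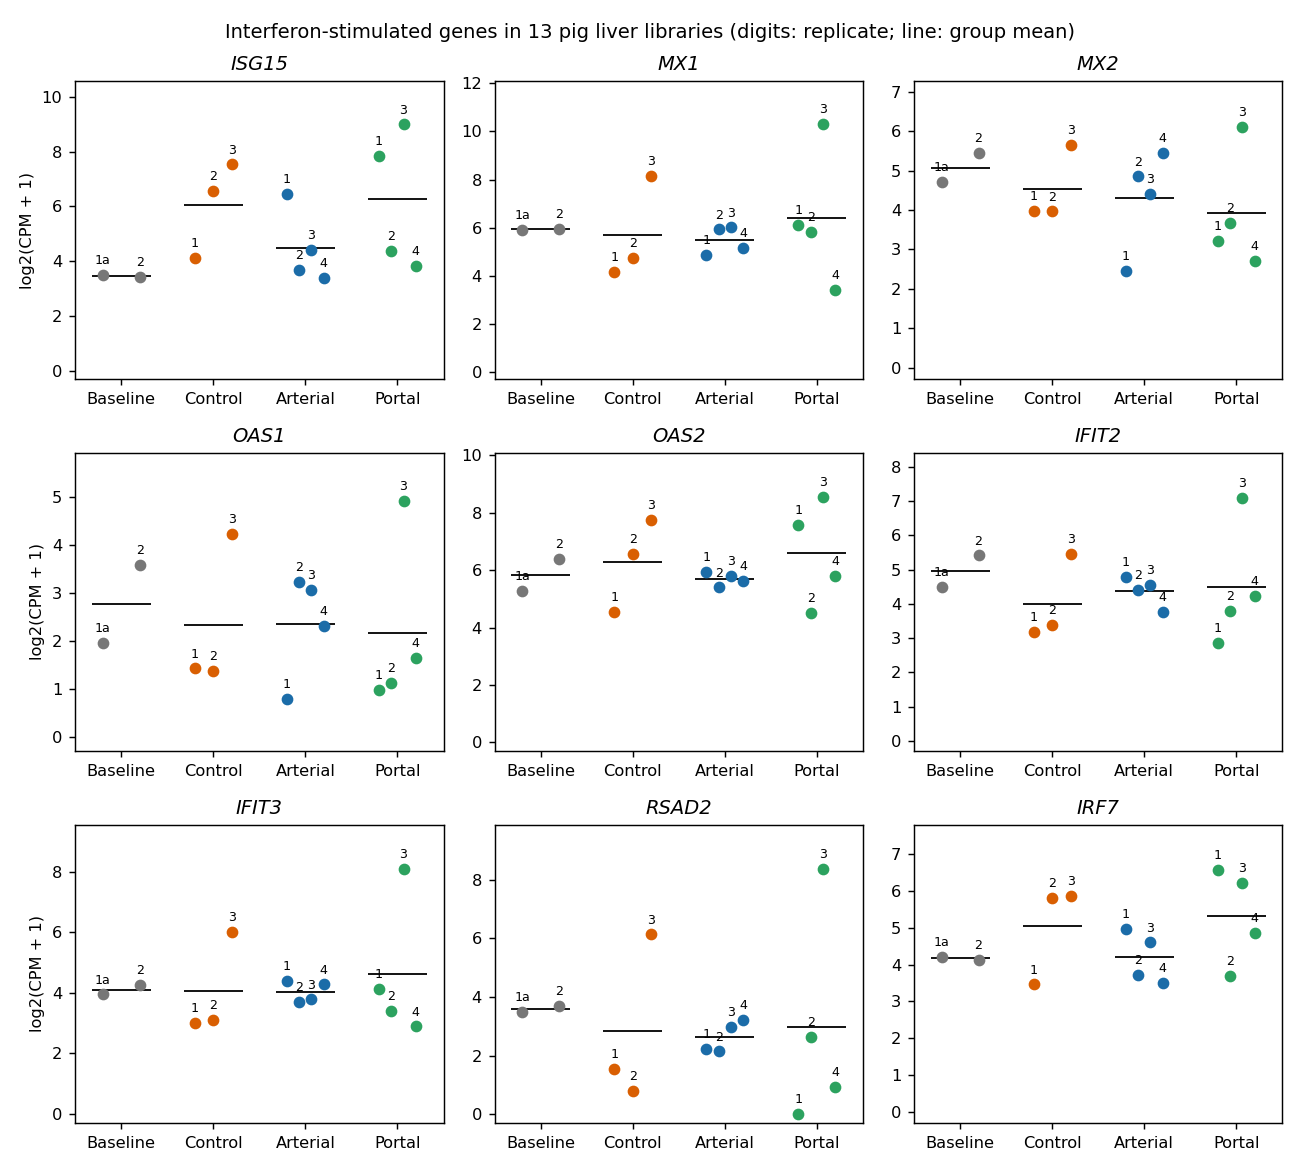
Level of each gene as log2(CPM + 1) in each of the 13 libraries, by group, with the replicate number at each point and the group mean as a line. Ischemic control 3 and portal infusion 3 are the highest points of their groups in all 9 panels for the controls and in 8 for the portal group, the exception being IRF7, highest in portal infusion 1.

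MX1 encodes a dynamin-like GTPase that blocks influenza and other viruses. It stood at 59.6 and 60.9 CPM at baseline, at 17.0, 25.7 and 283 CPM in ischemic controls 1 to 3, at 28.0, 59.8, 63.8 and 34.9 CPM in arterial livers 1 to 4, and at 67.8, 55.1, 1279 and 9.57 CPM in portal livers 1 to 4. Ischemic control 3 and portal infusion 3 were far above every other liver, while ischemic controls 1 and 2 lay below both baseline livers. MX2, its paralog, which acts against retroviruses and herpesviruses in human cells, stood at 25.2 and 42.5 CPM at baseline, at 14.8, 14.6 and 49.5 CPM in the controls, at 4.48, 28.0, 20.4 and 43.1 CPM in the arterial livers, and at 8.27, 11.7, 67.9 and 5.57 CPM in the portal livers. The same 2 livers were highest, but arterial infusion 4 and baseline 2 came close to ischemic control 3.

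OAS1 encodes an oligoadenylate synthetase, which senses double-stranded RNA and makes the messenger that activates RNase L. Its level was 2.87 and 11.08 CPM at baseline, 1.69, 1.58 and 17.8 CPM in the controls, 0.732, 8.45, 7.43 and 3.97 CPM in the arterial livers, and 0.961, 1.19, 29.5 and 2.13 CPM in the portal livers. OAS2, a larger enzyme of the same family, stood at 37.9 and 82.4 CPM at baseline, at 22.4, 93.4 and 214 CPM in the controls, at 60.4, 41.2, 54.4 and 48.5 CPM in the arterial livers, and at 188, 21.9, 376 and 55.1 CPM in the portal livers. Both were highest in portal infusion 3 and next highest in ischemic control 3, but OAS2 was also high in portal infusion 1, where OAS1 was near its lowest.

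IFIT2 and IFIT3 encode RNA-binding proteins that hold back translation of viral messages. IFIT2 stood at 21.4 and 41.6 CPM at baseline, at 8.01, 9.44 and 42.7 CPM in the controls, at 26.5, 20.3, 22.5 and 12.7 CPM in the arterial livers, and at 6.23, 12.8, 136 and 17.7 CPM in the portal livers. IFIT3 stood at 14.4 and 18.2 CPM at baseline, at 7.07, 7.61 and 64.0 CPM in the controls, at 20.1, 12.1, 12.8 and 18.4 CPM in the arterial livers, and at 16.6, 9.56, 274 and 6.42 CPM in the portal livers. For IFIT3, no liver other than these 2 exceeded 20.1 CPM, whereas for IFIT2 baseline 2 was close to ischemic control 3.

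RSAD2 encodes viperin, a radical SAM enzyme that makes a chain-terminating nucleotide against viral polymerases. It stood at 10.3 and 11.96 CPM at baseline, at 1.90, 0.731 and 69.3 CPM in the controls, at 3.66, 3.41, 6.91 and 8.29 CPM in the arterial livers, and at 0, 5.22, 333 and 0.893 CPM in the portal livers. The value of portal infusion 1 was 0 reads, which allows up to 3 reads. RSAD2 had the widest spread of the 9 genes, and outside ischemic control 3 and portal infusion 3 its highest values were those of the baseline livers.

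ISG15 encodes a ubiquitin-like protein that is attached to other proteins. It stood at 10.5 and 9.87 CPM at baseline, at 16.4, 93.1 and 184 CPM in the controls, at 87.2, 11.8, 20.6 and 9.50 CPM in the arterial livers, and at 228, 19.7, 507 and 13.3 CPM in the portal livers. All 3 controls were above both baseline livers, and arterial infusion 1 and portal infusion 1 were high as well. IRF7, the transcription factor that drives interferon-alpha genes once the response has begun, stood at 17.6 and 16.5 CPM at baseline, at 10.0, 55.3 and 57.2 CPM in the controls, at 30.4, 12.2, 23.3 and 10.4 CPM in the arterial livers, and at 93.7, 11.9, 73.1 and 28.1 CPM in the portal livers. It was the only one of the 9 genes with its portal maximum in portal infusion 1.

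By group mean, the portal livers ranked first for 8 of the 9 genes, MX2 being the exception, but the means followed single livers. For MX1 the order was portal (353 ± 618 CPM, SD, n = 4), controls (109 ± 151, n = 3), baseline (60.3 ± 0.899, n = 2) and arterial (46.6 ± 17.8, n = 4). For ISG15 it was portal (192 ± 233), controls (97.9 ± 84.0), arterial (32.3 ± 36.9) and baseline (10.2 ± 0.421). The order of RSAD2 was portal (84.8 ± 166), controls (24.0 ± 39.2), baseline (11.11 ± 1.20) and arterial (5.57 ± 2.41).

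Of the remaining 6 genes, IFIT3 ranked portal (76.7 ± 132), controls (26.2 ± 32.7), baseline (16.3 ± 2.70) and arterial (15.8 ± 4.02), and OAS2 ranked portal (160.2 ± 161), controls (109.8 ± 96.6), baseline (60.2 ± 31.5) and arterial (51.1 ± 8.22). IRF7 ranked portal (51.7 ± 38.1), controls (40.9 ± 26.7), arterial (19.1 ± 9.49) and baseline (17.0 ± 0.775). IFIT2 ranked portal (43.1 ± 61.9), baseline (31.5 ± 14.2), arterial (20.5 ± 5.81) and controls (20.1 ± 19.6). For OAS1 and MX2 all 4 means lay within 5.15 to 8.43 CPM and 23.4 to 33.9 CPM. Groups next to each other in these orders overlapped in their ranges, with the exception of RSAD2, whose baseline livers were above all 4 arterial livers, as were 11% of the genes tested (8.31% were below).

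The spread between livers of 1 group set these genes off from most of the transcriptome. The SD within groups, on the log2(CPM + 1) scale, was 2.58 for RSAD2, 1.97 for MX1, 1.87 for ISG15, 1.60 for IFIT3, 1.52 for OAS1, 1.32 for OAS2, 1.26 for IFIT2, 1.25 for MX2 and 1.08 for IRF7, against a median of 0.55 over all genes tested. Even IRF7, the least variable of them, had a larger SD than 92.5% of the genes tested, and RSAD2 a larger one than 99.99%.

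Ischemic control 3 had the highest level of the 3 controls in all 9 genes, where 30.4% of the genes tested had their control maximum in that liver. Portal infusion 3 had the highest level of the 4 portal livers in 8 of the 9, against 26.7% of the genes tested. For 7 of the 9 genes, all but ISG15 and IRF7, these were the 2 highest of the 11 livers at 6 h, against 1.07% of the genes tested. These counts were made after the levels had been seen and describe these 2 livers. The labels set neither of them apart from the rest of its group.

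RSAD2 in ischemic control 3 was 52.6 times the mean of the other 2 controls, and in portal infusion 3 it was 164 times the mean of the other 3 portal livers. For MX1 the same ratios were 13.3 and 29.0, for IFIT3 8.72 and 25.3, and for OAS1 10.9 and 20.7. IFIT2 (4.89 and 11.11), MX2 (3.37 and 7.97), OAS2 (3.69 and 4.27) and ISG15 (3.37 and 5.82) showed lower ratios. IRF7 differed least, at 1.75 and 1.64 times the other livers of its group. The ratio was higher in portal infusion 3 than in ischemic control 3 for every gene but IRF7.

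**Figure D2:**
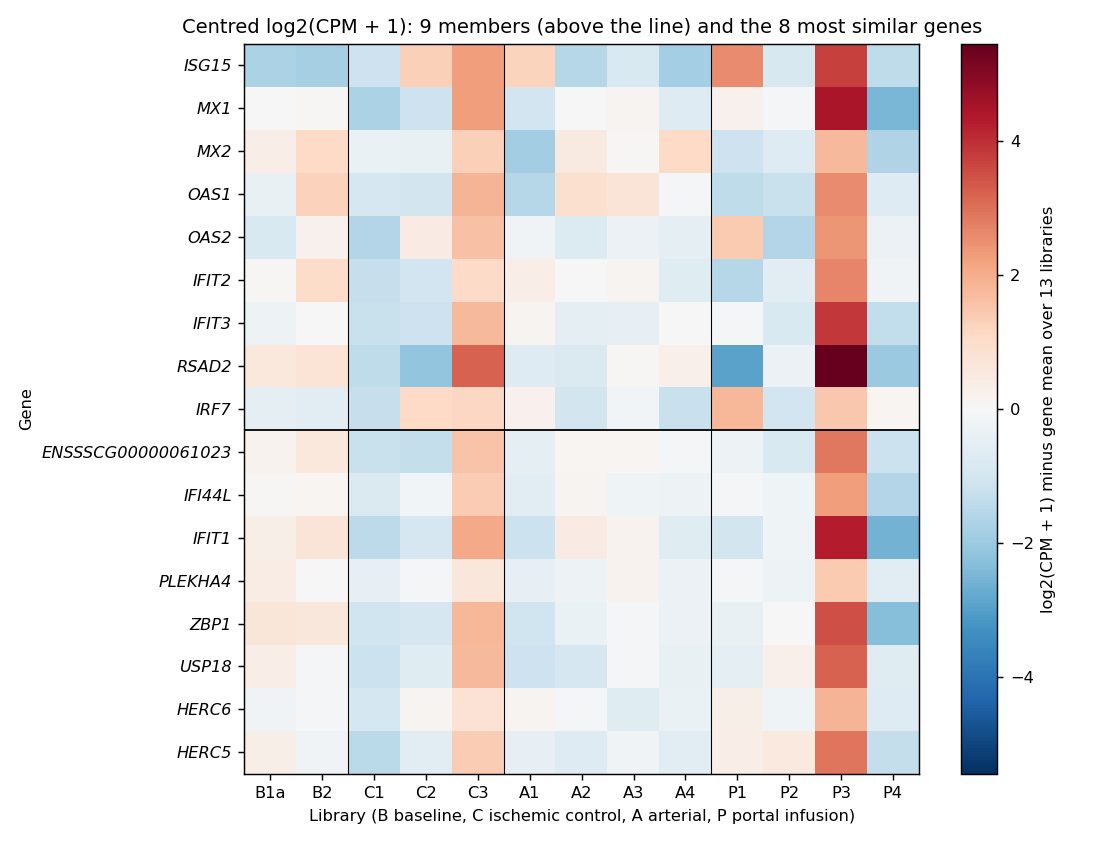
Level of each gene in each library as log2(CPM + 1) minus the mean of that gene over the 13 libraries, for the 9 ISGs above the line and, below it, the 8 genes with the most similar profile. Ischemic control 3 (C3) and portal infusion 3 (P3) are red for all 17 genes, and for the 9 ISGs together they average 1.83 and 3.15 above the mean of all libraries. The 8 genes were chosen by likeness to that profile, so their red color there is not a separate sign.

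The 8 other genes whose profile over the 13 libraries was most like the mean profile of the 9 ISGs were 1 gene without a symbol (ENSSSCG00000061023, Pearson r = 0.95), IFI44L (0.94), IFIT1 (0.93), PLEKHA4 (0.92), ZBP1 (0.92), USP18 (0.92), HERC6 (0.91) and HERC5 (0.91). All genes of a library share its depth and tissue make-up, which differ between libraries, and these r values describe likeness over 13 libraries without a test. IFIT1, the neighbor of IFIT2 and IFIT3 in the genome, was at 54.9 CPM in ischemic control 3, at 253 CPM in portal infusion 3 and between 1.19 and 20.2 CPM elsewhere. ZBP1, a sensor of Z-form nucleic acid, was at 34.2, 112 and 0.979 to 14.9 CPM, and USP18, which removes ISG15 from proteins, at 25.3, 70.8 and 2.48 to 9.14 CPM in the same order. The 8 genes were chosen by likeness to a profile that is highest in these 2 livers, so these levels are not a separate sign. Over the 11 libraries without these 2 livers the r of the 8 genes fell to between 0.36 for USP18 and 0.82 for ENSSSCG00000061023.

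Pairs of the 9 ISGs varied together mainly through those 2 livers. Over the 13 libraries the 36 pairs had a median Pearson r of 0.69 (from -0.04 for MX2 and IRF7 to 0.93 for MX1 and IFIT3) and a median Spearman rho of 0.51, and over the 11 livers at 6 h the medians were 0.73 and 0.50. Without ischemic control 3 and portal infusion 3 the median r over the other 11 libraries was 0.22, and it was above 0 in 24 of 36 pairs. The pairs then ran from -0.70 for ISG15 and RSAD2 to 0.87 for ISG15 and IRF7. With those 2 livers aside, ISG15, OAS2 and IRF7 each had an r below 0 with RSAD2.

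That split followed the first principal component. The component was built from the most variable genes tested, so it may hold some of these 9 genes and is not independent of them. Over the 9 livers at 6 h other than ischemic control 3 and portal infusion 3, Pearson r with the component was 0.88 for IRF7, 0.84 for OAS2 and 0.81 for ISG15, against -0.73 for RSAD2, -0.65 for MX2 and -0.60 for OAS1, while MX1 (-0.18), IFIT2 (-0.20) and IFIT3 (0.22) were nearer to 0. IRF7 was at 28.1 to 93.7 CPM in the 4 livers with high scores and at 10.0 to 23.3 CPM in the other 5, and OAS2 was at 55.1 to 188 CPM against 21.9 to 54.4 CPM. These 2 of the 9 genes were higher in all 4 livers than in all 5, as were 10.2% of the genes tested, and the lower direction, with none of the 9 genes, held 14.8%. ISG15 was at 87.2 to 228 CPM in 3 of the 4 livers but at 13.3 CPM in portal infusion 4. The same 4 livers had the lowest sums of hepatocyte markers at 6 h, 35300 to 68173 CPM against 81876 to 134435 CPM in the other 7. Their T and NK cell markers summed to 61.8 to 172 CPM against 33.5 to 90.6 CPM, and their neutrophil markers to 242 to 565 CPM against 97.2 to 351 CPM. Macrophage and Kupffer cell markers summed to 1701 to 4933 CPM against 1578 to 2618 CPM, with only ischemic control 2 above the other 7. B cell markers summed to 17.5 to 49.1 CPM against 10.5 to 37.2 CPM. The ranges overlapped for each of these blood cell lists. The part of these cells in the split was not tested.

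**Figure D3:**
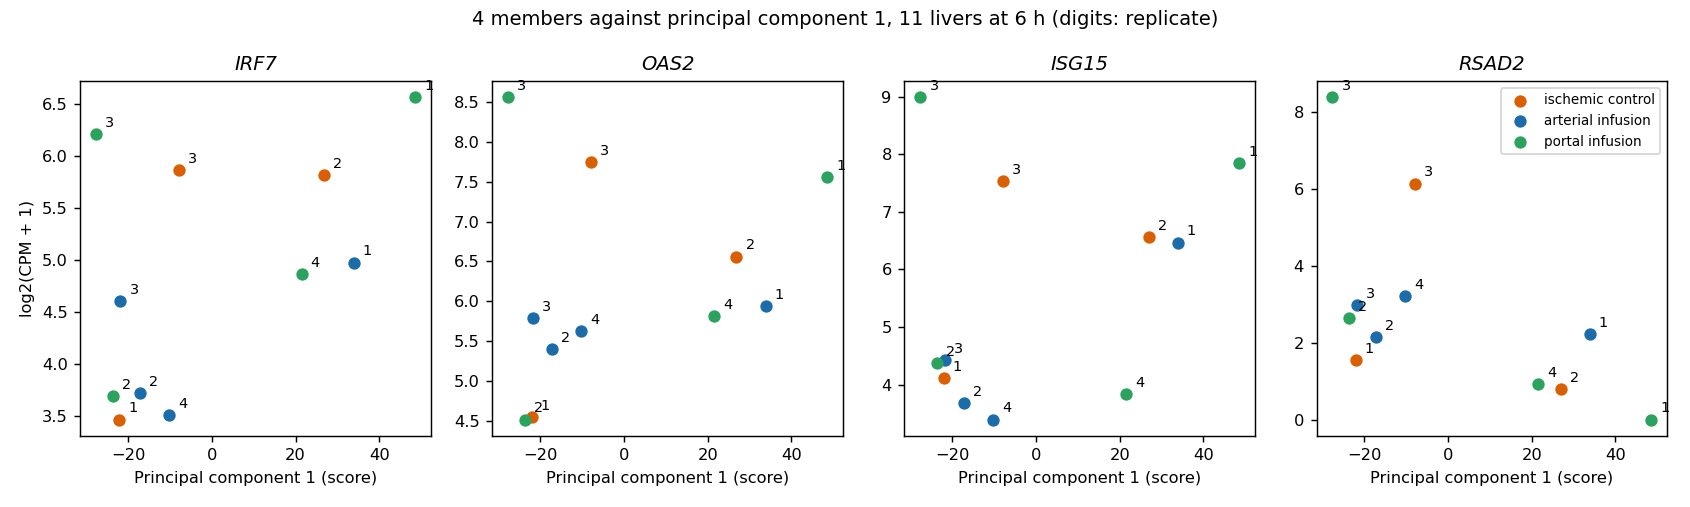
Levels of IRF7, OAS2, ISG15 and RSAD2 as log2(CPM + 1) against the score on the first principal component (no unit), for the 11 livers at 6 h, colored by group and with the replicate number at each point. IRF7, OAS2 and ISG15 are higher at the right among the livers other than ischemic control 3 and portal infusion 3, RSAD2 is lower there, and those 2 livers sit at the upper left in every panel.

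Markers of blood and stromal cell types were set beside these levels. Plasmacytoid dendritic cells are the main makers of interferon-alpha, and the 7 of 10 markers matched summed to 21.0 CPM in ischemic control 3 and 11.4 CPM in portal infusion 3, within the 7.62 to 22.0 CPM of the other 11 libraries. Macrophage and Kupffer cell markers (10 of 12 matched) summed to 2618 and 1980 CPM against 1399 to 4933 CPM elsewhere, and neutrophil markers (9 of 12) to 227 and 304 CPM against 97.2 to 565 CPM. T and NK cell markers (10 of 12; 90.6 and 56.0 CPM against 33.5 to 172 CPM) and B cell markers (7 of 7; 21.2 and 21.4 CPM against 10.5 to 49.1 CPM) were within the range of the other libraries as well. No matched marker was at 0 in all 13 libraries, but CLEC4C and LILRA4, which define plasmacytoid dendritic cells, were among the markers not matched. The part of these cells in the ISG levels was not tested.

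Mesenchymal stromal cell markers, which liver fibroblasts and stellate cells also express, summed to 1581 CPM in ischemic control 3, the highest of the 13 libraries, and to 332 CPM in portal infusion 3, against 308 to 1283 CPM elsewhere (9 of 10 matched). Ischemic control 3 received no cells. The list was at 308 to 1283 CPM in the arterial livers, 311 to 586 CPM in the portal livers, 513 to 1581 CPM in the controls and 584 to 920 CPM at baseline, so neither infused group was above the range of the controls, and the number of human cells in each sample is not analysed here.

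The first question was whether ischemia and reperfusion raised these genes. By edgeR's quasi-likelihood test over all 13 libraries, 0 of the 9 genes passed an adjusted p of 0.05 in ischemic controls against baseline, and 0% of the genes tested did. At an unadjusted p under 0.05, 1 of the 9 was higher and 0 were lower, against 3.16% and 1.21% of the genes tested. The median log2 fold change of the 9 genes was 0.85, beside 0.00 over all genes tested, and 7 of the 9 were above 0 against 50.2% of the genes tested.

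ISG15 was the gene with the unadjusted p under 0.05. Its log2 fold change was 3.27 (SE 1.50, 95% interval 0.06 to 6.47) with an adjusted p of 0.978 by edgeR. It was higher in 3 of 3 controls than in both baseline livers, as were 15.2% of the genes tested (15.6% were lower in all 3), and its exact two-sided permutation p was 0.2, where 3 against 2 livers cannot give less than 0.1. DESeq2 on these 5 libraries alone, the pairwise design of the study, gave ISG15 a log2 fold change of 3.31 with an adjusted p of 0.00411. That fit called 166 of 15935 genes with an adjusted p (1.04%) and ISG15 as the single one of the 9, with RSAD2 given no p. Over the 14 alternative fits ISG15 stayed between 2.49 and 3.77 on the log2 scale and its adjusted p ran from 0.00411 to 1.00.

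The other 8 genes overlapped between the controls and baseline. IRF7 had a log2 fold change of 1.26 (SE 0.84), RSAD2 1.11 (2.18), OAS2 0.87 (0.97), MX1 0.85 (1.49), IFIT3 0.69 (1.31), OAS1 0.01 (1.43), MX2 -0.36 (0.99) and IFIT2 -0.65 (1.02), each with an adjusted p of 0.978 to 1.00 by edgeR. The 95% interval of RSAD2 reached from -3.54 to 5.76, so these livers leave the size and the direction of a difference unsettled. For 6 of the 9 genes (MX1, MX2, OAS1, IFIT2, IFIT3 and RSAD2) ischemic controls 1 and 2 were both below both baseline livers, against 22.7% of the genes tested, and ischemic control 3 was above both. Without ischemic control 3 the median of the 9 genes was -1.18 in place of 0.85.

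The second question was whether livers that received human BM-MSCs differed from the controls. For the 8 infused livers, both fits averaged the log2 fold changes of the arterial and the portal group against the controls. In this comparison 0 of the 9 genes passed by edgeR (0% of the genes tested). At an unadjusted p under 0.05, 0 were called in either direction (0.734% higher and 1.41% lower among the genes tested). DESeq2 on these livers called 0 as well, without a p for MX1, IFIT3 and RSAD2. The log2 fold changes lay between -0.38 (IRF7, SE 0.58) and 0.57 (IFIT2, SE 0.79), with a median of -0.14 beside -0.02 over all genes tested, and 3 of the 9 were above 0, against 47.9% of the genes tested. With the routes averaged on the log2 scale, the sign can differ from that of the mean CPM. ISG15 averaged 112 CPM in infused livers and 97.9 CPM in controls, with a log2 fold change of -0.31. RSAD2 averaged 45.2 and 24.0 CPM, with -0.14. All 9 genes overlapped between the groups (0.206% of the genes tested were higher and 0.407% lower in every infused liver than in every control), and their exact permutation p values were 0.624 to 1, where 0.00606 is the smallest these numbers of livers allow. The intervals were wide here too, from -2.34 to 1.71 for ISG15 and from -2.08 to 2.56 for MX1.

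By route, the median of the 9 genes was below the controls in arterial livers and above them in portal livers, and both comparisons share these controls. In arterial infusion against controls the median of the 9 genes was -1.10 (0.01 over all genes tested), with RSAD2 at -2.11 (SE 1.78), ISG15 at -1.60 (1.08) and MX1 at -1.22 (1.20). In portal infusion against controls it was 0.97 (-0.02 over all genes tested), with RSAD2 at 1.82 (1.86), MX1 at 1.70 (1.28) and IFIT3 at 1.55 (1.13). None of the 9 genes passed in either comparison by edgeR (0% of the genes tested in each) or had an unadjusted p under 0.05 (0.625% higher and 0.94% lower in the arterial comparison, 1.13% and 1.66% in the portal one), and DESeq2 called 0 of the 9 in each (0% and 0.0185% of the genes with an adjusted p). All 9 genes overlapped with the controls in both comparisons, where 1.46% of the genes tested were higher and 1.68% lower in all arterial livers, and 1.27% and 2.45% in all portal livers. Above 0 were 1 of the 9 in the arterial comparison, against 50.8% of the genes tested, and 8 of the 9 in the portal one, against 48.1%. DESeq2 gave no p for 3 of the 9 in the arterial and 6 of the 9 in the portal comparison. MX2 was below the controls by both routes (-0.13 and -0.17) and IFIT2 above them by both (0.03 and 1.10). Either median turned when 1 liver was left out, to -1.28 in portal livers without portal infusion 3 and to 1.09 in arterial livers without ischemic control 3.

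The third question was whether the routes differed from each other. In arterial against portal infusion 0 of the 9 genes passed an adjusted p of 0.05 by edgeR (0% of the genes tested), and DESeq2 on these 8 livers called 0 as well, with no p for 4 of the 9. Lower in the arterial livers at an unadjusted p under 0.05 were 6 of the 9 genes, against 1.32% of the genes tested, and 0 were higher, against 1.09%. These were RSAD2 with a log2 fold change of -3.93 (SE 1.83), MX1 with -2.92 (1.21), ISG15 with -2.57 (1.07), IFIT3 with -2.27 (1.04), OAS2 with -1.65 (0.75) and IRF7 with -1.44 (0.63), and the adjusted p was 1.00 for each by edgeR. The median of the 9 genes was -1.65, beside 0.04 over all genes tested, and 1 of the 9 was above 0, against 52.9% of the genes tested.

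For RSAD2, MX1 and IFIT3 the direction turned without portal infusion 3, while ISG15, OAS2 and IRF7 stayed lower. Without this liver the log2 fold changes of the 6 genes were 1.44 for RSAD2, 0.08 for MX1, -1.43 for ISG15, 0.55 for IFIT3, -0.79 for OAS2 and -1.22 for IRF7, with adjusted p values of 0.910 to 0.989 by edgeR, and the median of the 9 genes became 0.55. IRF7 moved further without portal infusion 1, the liver of its portal maximum, to -0.98. With portal infusion 3 aside, ISG15 and OAS2 were also highest of the portal livers in portal infusion 1. ISG15 was at 228 CPM there, beside 19.7 and 13.3 CPM in portal infusion 2 and 4, and OAS2 at 188 CPM beside 21.9 and 55.1 CPM. Portal infusion 1 and 4 were among the livers with high scores on the first principal component. All 9 genes overlapped between the routes (0.862% of the genes tested were higher and 0.419% lower in all arterial livers), and exact permutation over the livers gave p values of 0.2 for IRF7, 0.229 for ISG15, 0.343 for OAS2, 0.686 for MX1, 0.914 for IFIT3 and 0.943 for RSAD2, where the smallest possible value is 0.0286. The 4 arterial livers themselves lay close together in OAS2 (1.47-fold between the lowest and highest), IFIT3 (1.67-fold), IFIT2 (2.09-fold), MX1 (2.28-fold) and RSAD2 (2.43-fold), but not in ISG15 (9.19-fold), MX2 (9.60-fold) or OAS1 (11.6-fold).

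**Figure D4:**
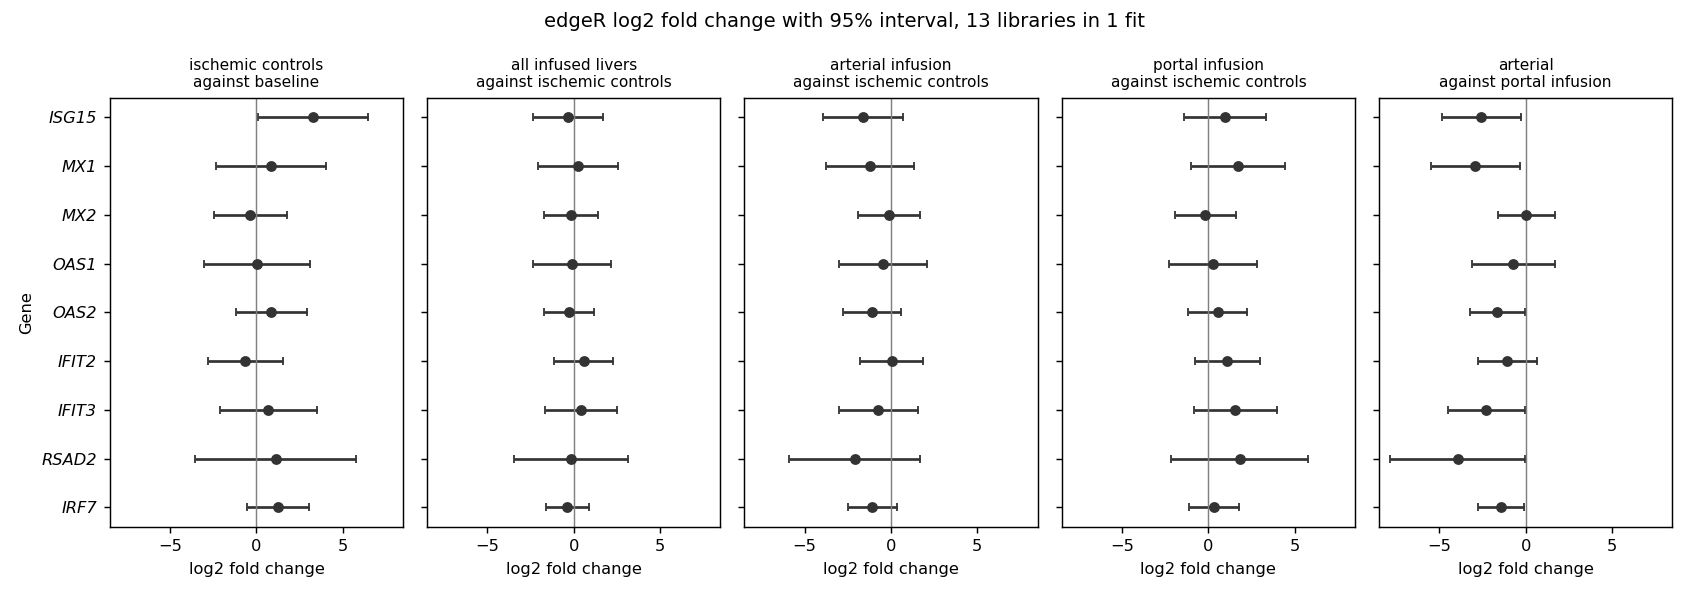
Log2 fold change of each gene with its 95% interval in the 5 comparisons, from 1 edgeR fit over 13 libraries; the vertical line marks no difference. The intervals include 0 except for ISG15 in controls against baseline and for 6 genes in arterial against portal infusion, and none of these passed after adjustment over 16481 genes.

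**Figure D5:**
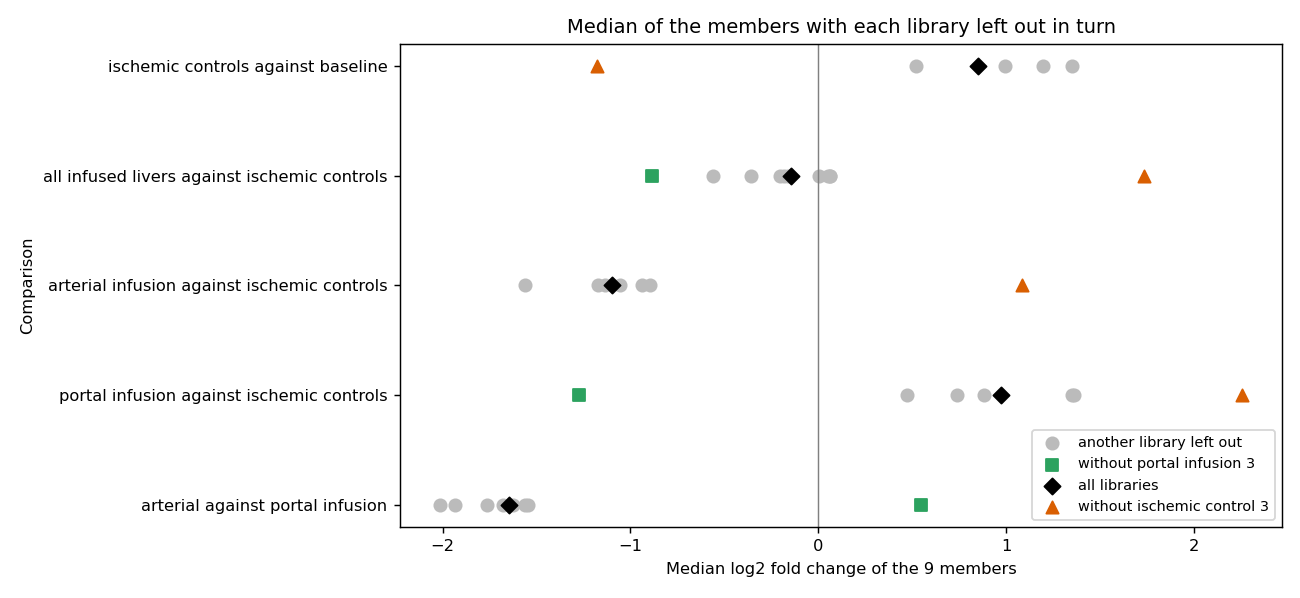
Median log2 fold change of the 9 genes in each comparison with all libraries (black) and with 1 library at a time removed. The triangle (without ischemic control 3) and the square (without portal infusion 3) lie farthest from the black diamond, and the median changes sign in all 5 comparisons, to -1.18 for controls against baseline, between -0.88 and 1.74 for all infused livers, to 1.09 for arterial livers, to -1.28 for portal livers and to 0.55 for arterial against portal infusion.

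Upstream of these genes, interferon messages had few reads. Of 30 interferon genes listed, 17 had an entry in the table, 7 of these had 0 reads in every library and none had enough reads to be tested. IFNB1, the first interferon made by most cells, had 1 read in all, in ischemic control 3, and 0 in the other 12 libraries, a count that allows up to 3 reads each. IFNG, the interferon of T and NK cells, had 33 reads, of which 14 were in ischemic control 3 and 3 in portal infusion 3. IFN-ALPHA-8 had 41 reads, 20 of them in arterial infusion 4 and 8 in portal infusion 3, and IFN-ALPHA-15 had 25, of which 9 were in portal infusion 4 and 8 in ischemic control 3. Interferon-alpha genes are close copies of each other, so reads can be split between them, and differences were not detectable at this depth.

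Of the 12 receptors and signal transducers, all tested, 0 passed in any of the 5 comparisons by edgeR (0% of all genes tested in each). By unadjusted p under 0.05, 0 were called in either direction, against 0.625% to 3.16% of all genes tested per comparison and direction. Their median log2 fold change was -0.41 in controls against baseline and 0.00 in all infused livers against controls. TYK2, a kinase at the interferon-alpha receptor, was at 38.8 ± 2.77 CPM (SD) at baseline and 17.7 ± 2.60 CPM in the controls, a log2 fold change of -1.13 (SE 0.54, adjusted p = 0.978 by edgeR). Of the 12, IRF9 alone had its 2 highest levels at 6 h in ischemic control 3 (66.1 CPM) and portal infusion 3 (61.3 CPM), against 1.07% of all genes tested.

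Among 18 nucleic acid sensors and interferon-inducing factors tested of 21 listed, 0 passed in any comparison by edgeR (0% of all genes tested in each). The only unadjusted p under 0.05 were for 2 genes lower in arterial than in portal livers, against 1.32% of all genes tested. RIGI, the cytosolic sensor of viral RNA and itself an ISG, was at 60.1 and 94.9 CPM at baseline, 21.8, 8.47 and 58.4 CPM in the controls and 2.34, 46.3, 456 and 6.25 CPM in the portal livers, with 23.7 to 40.7 CPM in the arterial livers. It was highest in portal infusion 3 like 8 of the 9 ISGs, all but IRF7, but ischemic control 3 was not above baseline. RIGI, IFIH1, DHX58 and ZBP1, 4 of the 18, had their 2 highest levels at 6 h in ischemic control 3 and portal infusion 3, against 1.07% of all genes tested. CGAS, the cytosolic DNA sensor, was at 2.37 CPM or less in every library.

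Of the other type I ISGs, 36 were tested of 52 listed, and 23 of them had their 2 highest levels at 6 h in ischemic control 3 and portal infusion 3, against 1.07% of all genes tested, among them IFIT1, IFI44, IFI44L, OASL, CMPK2, DDX60, HERC5 and EIF2AK2. IFIT1, IFI44L, HERC5 and HERC6 of the 23 are also among the genes of most similar profile above. The control maximum was in ischemic control 3 for 29 of the 36 and the portal maximum in portal infusion 3 for 33, against 30.4% and 26.7% of all genes tested. By edgeR 0 passed in any comparison. In controls against baseline 1 was higher at an unadjusted p under 0.05 and 0 were lower, against 3.16% and 1.21% of all genes tested, and the median log2 fold change was 0.08. In all infused livers against controls 0 were higher and 2 were lower, against 0.734% and 1.41% of all genes tested, and the median was 0.08. The median was -0.27 in arterial and 0.36 in portal livers against controls, and -0.56 in arterial against portal livers, with 5 genes lower and 0 higher at an unadjusted p under 0.05, against 1.32% and 1.09% of all genes tested. Without portal infusion 3, a setting chosen after seeing the data, the median in arterial against portal livers was 0.28, with 1 gene lower and 0 higher, and in portal livers against controls it was -0.47. Without ischemic control 3 the median was -0.92 in controls against baseline, 0.46 in arterial and 1.02 in portal livers against controls.

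IFI6, a mitochondrial ISG product, was at 456 and 97.8 CPM at baseline, 312, 3048 and 1646 CPM in the controls, 497, 176, 135 and 216 CPM in the arterial livers and 2343, 572, 549 and 1732 CPM in the portal livers. Its highest levels were in ischemic control 2 and portal infusion 1, and portal infusion 3 was the lowest portal liver. In each group at 6 h the maximum was in a liver with a high score on the first principal component (in the arterial group arterial infusion 1). The log2 fold change was 2.59 (SE 1.02) in controls against baseline and -1.53 (SE 0.64) in all infused livers against controls by edgeR, with adjusted p values of 0.978 and 1.00. LGALS3BP, a secreted ISG product, was at 304 CPM in ischemic control 3 beside 49.8 and 64.5 CPM in the other controls and 33.1 to 119 CPM in the infused livers (-1.32, SE 0.48, adjusted p = 1.00 by edgeR). BST2 or tetherin, which holds budding virus at the cell surface, was at 9.91 ± 0.123 CPM at baseline and 32.4 ± 15.1 CPM in the controls (1.71, SE 0.81, adjusted p = 0.978 by edgeR).

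Genes induced mainly by interferon gamma had their control maximum in ischemic control 3 for 8 of 12 tested, against 30.4% of all genes tested, and their portal maximum in portal infusion 3 for 5, against 26.7%. Of the 12, 0 passed in any comparison by edgeR (0% of all genes tested in each). By unadjusted p under 0.05, 0 were called, against 0.625% to 3.16% of all genes tested per comparison and direction. The median log2 fold change was 0.05 in controls against baseline and -0.20 in all infused livers against controls. Only FCGR1A had its 2 highest levels at 6 h in the same 2 livers, against 1.07% of all genes tested. CXCL10, a chemokine for T cells that both kinds of interferon induce, was at 22.6 and 89.3 CPM at baseline, 46.3, 49.9 and 58.6 CPM in the controls, 13.1, 101, 26.0 and 39.2 CPM in the arterial livers and 13.2, 17.8, 51.6 and 22.5 CPM in the portal livers. Ischemic control 3 and portal infusion 3 were thus the highest of their groups, and arterial infusion 2 was the highest of all libraries.

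Of 11 negative regulators of interferon signaling, 0 passed in any comparison by edgeR (0% of all genes tested in each). In controls against baseline 1 was higher and 1 lower at an unadjusted p under 0.05, against 3.16% and 1.21% of all genes tested. CISH, a feedback inhibitor of cytokine receptors, was at 19.9 ± 5.86 CPM at baseline and 45.0 ± 16.7 CPM in the controls (1.18, SE 0.48, adjusted p = 0.978 by edgeR), and RNF125, a ubiquitin ligase that marks RIG-I for destruction, at 664 ± 411 and 193 ± 126 CPM (-1.79, SE 0.73, adjusted p = 0.978 by edgeR). SOCS1, the best known inhibitor of JAK kinases, was at 48.1, 93.8 and 22.8 CPM in controls 1 to 3 and 26.3 CPM in portal infusion 3, so it was not high in the 2 livers with the highest ISG levels. USP18 alone of the 11 had its 2 highest levels at 6 h there, against 1.07% of all genes tested.

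By RefSeq coordinates on Sscrofa11.1, to which the reads had been mapped, 6 of the 9 genes form 3 neighboring pairs. MX2 (chromosome 13, 204798633 to 204821612) and MX1 (204843049 to 204868927) lie 21436 bases apart, OAS2 (chromosome 14, 38827667 to 38847697) and OAS1 (38851083 to 38867427) 3385 bases apart, and IFIT2 (chromosome 14, 101193421 to 101204292) and IFIT3 (101214730 to 101225169) 10437 bases apart. ISG15 is at 63363201 to 63364211 on chromosome 6, RSAD2 at 128880853 to 128897809 on chromosome 3 and IRF7 at 372235 to 375572 on chromosome 2. Members of these families resemble each other in sequence, and how reads that map to several places were counted is not given in the sources used here.

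The libraries do not keep the strand, so reads of overlapping genes cannot be told apart by direction. IFIT2 and IFIT3 overlap the span of LIPA, a lysosomal lipase, which was at 64.5 CPM in ischemic control 3 and 74.2 CPM in portal infusion 3, within the 8.01 to 87.2 CPM of the other libraries. OAS1 overlaps RPH3A, which had 0 to 4 reads per library, and ISG15 overlaps LOC110261384, whose level is not analysed here. MX1, MX2, OAS2, RSAD2 and IRF7 overlap no other gene in RefSeq. The paper counted reads with the Ensembl annotation, whose overlaps were not looked up here.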

How the data were processed

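Liver RNA of 13 libraries in 4 groups was analysed from 1 table of raw counts per gene, which the authors deposited after mapping reads to Sscrofa11.1 with HISAT2 and counting them with FeatureCounts. Tool versions and the handling of multimapping reads are not given in the sources used here. Every column was assigned to a sample by its label (0 unassigned). The p-values measure the spread between these libraries.

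The main test was the quasi-likelihood test of edgeR 4.0.16 in R 4.3.3, after filterByExpr and TMM, with Benjamini-Hochberg adjustment over 16481 genes, a threshold of 0.05 and all 4 groups in 1 fit. For all infused livers against controls, the arterial and portal log2 fold changes were averaged with equal weight. Counts were also tested with DESeq2 1.42.0 as an alternative, the tool the authors used for pairs of groups. The edgeR step was tested on simulated data. Exact two-sided permutation tests and correlations used log2(CPM + 1), a pseudocount of 1. Where DESeq2 gave no p, none was filled in.

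Total counts were 18975413 to 35949178 (median 30260803). Limits on 0 counts cover counting error only, whereas the 95% intervals come from the edgeR fit and include the spread between libraries. Replicates differed by a chi-square of at least 77.1 per gene, so no library of a group was a copy of another.

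The 9 genes, the gene lists and the tests were chosen with earlier results of these data known. Named beyond the 9 were the 8 genes of most similar profile, up to 4 genes per list by the smallest unadjusted p in controls against baseline and up to 4 in infused livers against controls, and interferon genes by reads. IRF9, IFIH1, DHX58, FCGR1A, SOCS1, CXCL10 and other genes named for, or against, the 2 highest livers were chosen after their values were seen. Promoter sequences were not analysed here. The result for 1 gene is not reported here.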

Additional observations from a re-analysis of the deposited data

Results flagged for a closer look

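In each group of 4 livers the gap between an extreme liver and its nearest neighbor was divided by the range of the group, and a ratio above Dixon's 95% critical value marked a liver as standing apart. For normal values chance does this in about 1 in 20 groups, but of all genes tested 11.9% had such a liver in the portal and 12.5% in the arterial group on the CPM scale. In portal infusion 3 this held for 6 of the 9 genes on the CPM scale, against 1.59% of the genes tested, with a ratio of 0.984 for RSAD2, 0.962 for IFIT3, 0.959 for OAS1, 0.954 for MX1, 0.912 for IFIT2 and 0.901 for MX2. The 6 genes vary together in this liver, so they are not 6 separate signs. In the arterial group 1 of the 9 genes had such a liver, against 12.5% of the genes tested. This was ISG15 in arterial infusion 1, with a ratio of 0.857 (87.2 CPM against 20.6 CPM in the next liver). On the log2(CPM + 1) scale, chosen after seeing the data, 1 of the 9 had such a liver in the portal group, near the 9.59% of the genes tested. In the arterial group 0 had one, against 9.27%. The 1 gene was OAS1 in portal infusion 3 (0.830), just past the critical value, and 1.23% of the genes tested stood apart high in that liver. On this scale MX2 was at 0.719, IFIT3 at 0.761, RSAD2 at 0.686, IFIT2 at 0.677 and MX1 at 0.610, and ISG15 in arterial infusion 1 at 0.661. The controls, with 3 livers, and the baseline, with 2, were too few for this measure, so ischemic control 3 was not assessed by it.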

How the results depend on the processing

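Groups held 2 to 4 livers, which limits every comparison here. Of 706 values of single genes under the alternatives, 615 kept their sign and their side of the threshold, 88 changed sign (62 with 1 library left out) and 3 passed the threshold. DESeq2 values without an adjusted p were counted as not past the threshold, so the 615 include values without a test outcome. Of 45 pairs of gene and comparison, 34 changed sign when 1 library was left out. RSAD2 could not be fitted with at least 10 counts in every library.

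The number of the 9 genes called was 0 except by DESeq2 over the groups compared, with 1 in controls against baseline (ISG15), and without a filter on low counts, with 2 in arterial against portal infusion (MX1, -2.91, adjusted p = 0.0488, and RSAD2, -3.93, adjusted p = 0.0172, by edgeR). The cause was not tested. Over all alternatives the adjusted p of these 2 genes reached 1.00.

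Replicate numbers were not used as pairs in the main test. Of 16 pairs with the same number, the correlation of deviations was above 0.1 in 7, from -0.58 to 0.57. The deviations of 2 baseline libraries mirror each other, so this check cannot decide whether a baseline library shares its pig with a liver at 6 h. With the replicate block (baseline 1a taken as number 1) 0 of the 9 genes were called, and the median log2 fold change was -1.18 in controls against baseline, 0.35 in arterial livers against controls and -0.24 in arterial against portal infusion. Under the block, controls against baseline gave -1.45 for MX1, -1.59 for OAS1, -1.18 for IFIT3 and -3.04 for RSAD2, infused livers against controls 0.10 for OAS1, 0.063 for OAS2 and 1.15 for RSAD2, arterial livers against controls 0.82 for MX1, 0.35 for OAS1, 0.88 for IFIT3 and 1.25 for RSAD2, portal livers against controls -0.14 for OAS1, and arterial against portal infusion 0.49 for OAS1, 0.0061 for IFIT2 and 0.22 for RSAD2.

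OAS1 in controls against baseline lay near 0, with -0.0065 by DESeq2 over all libraries, -0.0043 by edgeR over the groups compared, -0.0022 with RLE normalization, -0.0067 without a filter, -0.021 with at least 10 counts in every library and -0.049 with all 11 livers at 6 h against baseline. Without the 4 libraries apart on the first component, MX2 was at 0.13 and OAS1 at 0.061 in infused livers against controls, IFIT2 at -0.43 in arterial livers, MX2 at 0.31 in portal livers and MX2 at -0.36 in arterial against portal infusion.

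With 1 library left out, a lone liver being taken to vary like the other groups, the median ran from -1.18 to 1.35 in controls against baseline, -0.88 to 1.74 in infused livers, -1.56 to 1.09 in arterial livers and -1.28 to 2.26 in portal livers against controls, and -2.01 to 0.55 in arterial against portal infusion. In controls against baseline MX1 ran from -1.46 to 1.36, MX2 from -1.18 to 0.045, OAS1 from -2.06 to 1.28, IFIT3 from -1.12 to 1.14 and RSAD2 from -3.04 to 1.70, each low without ischemic control 3. In infused livers against controls ISG15 ran from -0.94 to 0.45, MX1 from -1.26 to 2.55, MX2 from -0.88 to 0.66, OAS1 from -1.38 to 1.98, OAS2 from -0.76 to 0.58, IFIT2 from -0.34 to 1.74, IFIT3 from -1.002 to 2.21 and RSAD2 from -2.83 to 4.00, each high without ischemic control 3. In arterial livers against controls MX1 ran from -1.73 to 1.10, MX2 from -0.58 to 0.69, OAS1 from -0.93 to 1.64, IFIT2 from -0.35 to 1.21, IFIT3 from -1.18 to 1.09 and RSAD2 from -2.69 to 2.05, again high without that liver. In portal livers against controls ISG15 ran from -0.17 to 1.72, MX1 from -1.30 to 3.99, MX2 from -1.63 to 0.63, OAS1 from -2.30 to 2.32, OAS2 from -0.32 to 1.38, IFIT2 from -0.72 to 2.26, IFIT3 from -1.28 to 3.34 and RSAD2 from -3.55 to 5.96, low without portal infusion 3 and high without ischemic control 3, and IRF7 from -0.12 to 0.67 (low without ischemic control 1). In arterial against portal infusion MX1 ran from -3.33 to 0.078, MX2 from -0.41 to 1.49, OAS1 from -1.09 to 1.85, IFIT2 from -1.43 to 0.75, IFIT3 from -2.66 to 0.55 and RSAD2 from -4.34 to 1.44, each high without portal infusion 3.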
